A study of Cyanidioschyzon merolae strain 10D with 12 samples.

Results

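Transcripts of 3 protein-folding genes were followed through a fall and a return of CO2 in Cyanidioschyzon merolae strain 10D, a unicellular red alga of hot acidic springs. CMQ270C is described in the deposited table as HSP60, CMF129C as a 10 kDa chaperonin and CMI136C as a homolog of P58IPK, a J-domain co-chaperone. These 3 of the 4970 genes in the table were chosen by identifier and on their measured values, because CMQ270C and CMF129C fell and CMI136C rose across the 4 groups. Their levels and changes are therefore given as a description, with no test.

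RNA was sequenced from 12 wild-type libraries, 3 biological replicates in each of 4 groups. The first group (HC 0 h) was taken from cultures bubbled with 5% CO2 in air. The next groups were taken 3 h (LC 3 h) and 24 h (LC 24 h) after the supply was lowered to 0.04% CO2. The last group (recovery) was taken 24 h after the return to 5% CO2. Per the labels' protocols, light, temperature and the other growth conditions were held constant. No culture kept at 5% CO2 through the later times was analysed here. CO2 supply and time in culture therefore cannot be told apart in any comparison with HC 0 h. The same holds for recovery against LC 24 h, because the recovery group was also taken later. Summed counts per library were 9671516 to 11367647 at HC 0 h, 9887990 to 12063878 at LC 3 h, 13366148 to 22881422 at LC 24 h and 24296460 to 28346661 in recovery.

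HSP60 chaperonins form barrel-shaped, ATP-driven chambers in which proteins fold after import into mitochondria, and a ring of 10 kDa co-chaperonin subunits closes the chamber. Plastids hold a related pair of chaperonin and co-chaperonin, and the cytosol of eukaryotes holds a chaperonin of a separate type, built of TCP-1 subunits, for which actin and tubulin are known clients. In mammals P58IPK is a J-domain protein of the endoplasmic reticulum (ER) that hands unfolded proteins to BiP, the HSP70 of the ER lumen, and it belongs to the unfolded protein response, the programme that raises ER chaperones when unfolded proteins gather there.

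The names rest on the best Arabidopsis match given in the authors' deposited table. CMQ270C was matched to AT3G23990 (HSP60-3B) with an E-value listed as 0, over a gene length of 1761 bases. The match of CMF129C was AT1G23100, a putative 10 kDa chaperonin, with an E-value of 6e-34 and a gene length of 303 bases. For CMI136C the match was AT5G03160 (P58IPK), with an E-value of 2e-13 and a gene length of 1980 bases. The site of the proteins in the cell was not measured. The authors' deposited table placed CMQ270C and CMF129C in the same expression cluster, numbered 6 with 715 genes, and CMI136C in cluster 9 with 619 genes.

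CMQ270C was abundant at high CO2 and lost most of its transcript within a day at low CO2. Its normalised read count, CPM, which scales each count to the size of its library, was 2535, 2018 and 1850 in HC 0 h replicates 1 to 3. At LC 3 h the CPM was 1215, 827 and 859, and at LC 24 h it was 484, 447 and 455. The recovery libraries stood at 1458, 1255 and 1339 CPM, below all HC 0 h libraries and above all low-CO2 libraries. The order of the group means was HC 0 h, recovery, LC 3 h and LC 24 h, at 2135 ± 357 (SD, n = 3), 1351 ± 102, 967 ± 216 and 462 ± 19.1 CPM, and no neighbouring groups in that order overlapped. The mean at LC 24 h was 21.7% of that at HC 0 h, and the mean in recovery was 63.3% of it. The fitted log2 change from HC 0 h was -1.14 ± 0.17 (SE) at LC 3 h, -2.21 ± 0.17 at LC 24 h and -0.66 ± 0.16 in recovery. Of the 4865 genes that passed the filter on low counts, 29 had a lower log2 change at LC 24 h.

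CMF129C, the 10 kDa partner type, moved the same way from a lower level. Its CPM was 140, 104 and 111 at HC 0 h and 72.6, 37.6 and 33.5 at LC 3 h. At LC 24 h the 3 libraries lay within 21.9 to 22.7 CPM. In recovery the CPM was 93.2, 88.1 and 87.4. LC 3 h replicate 1 stood well above the other LC 3 h libraries, while the LC 24 h libraries were nearly equal. The means in descending order were 118 ± 19.1 (SD, n = 3) at HC 0 h, 89.6 ± 3.13 in recovery, 47.9 ± 21.5 at LC 3 h and 22.3 ± 0.39 at LC 24 h, again with no overlap between neighbouring groups. The log2 change from HC 0 h was -1.30 ± 0.24 (SE) at LC 3 h, -2.41 ± 0.24 at LC 24 h and -0.40 ± 0.23 in recovery, and 19 genes had a lower log2 change at LC 24 h. From LC 3 h to LC 24 h it fell by 1.11 ± 0.24 on the log2 scale, and by 0.70 without LC 3 h replicate 1. The change in recovery against HC 0 h was -0.26 without HC 0 h replicate 1, so the size of the remaining gap rests in part on that library.

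CMI136C mirrored the pair. Its CPM was 98.4, 107 and 107 at HC 0 h, 193, 228 and 234 at LC 3 h, and 308, 416 and 415 at LC 24 h. In recovery it was 127, 156 and 173, so every recovery library lay above HC 0 h and below LC 3 h. Group means ran upward from HC 0 h at 104 ± 5.05 (SD, n = 3) through recovery at 152 ± 23.4 and LC 3 h at 218 ± 21.9 to LC 24 h at 380 ± 61.8 CPM, without overlap between neighbours. The mean at LC 24 h was 365% of that at HC 0 h. The log2 change from HC 0 h was 1.07 ± 0.14 (SE) at LC 3 h, 1.87 ± 0.14 at LC 24 h and 0.55 ± 0.14 in recovery, and 85 genes had a higher log2 change at LC 24 h.

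**Figure D1:**
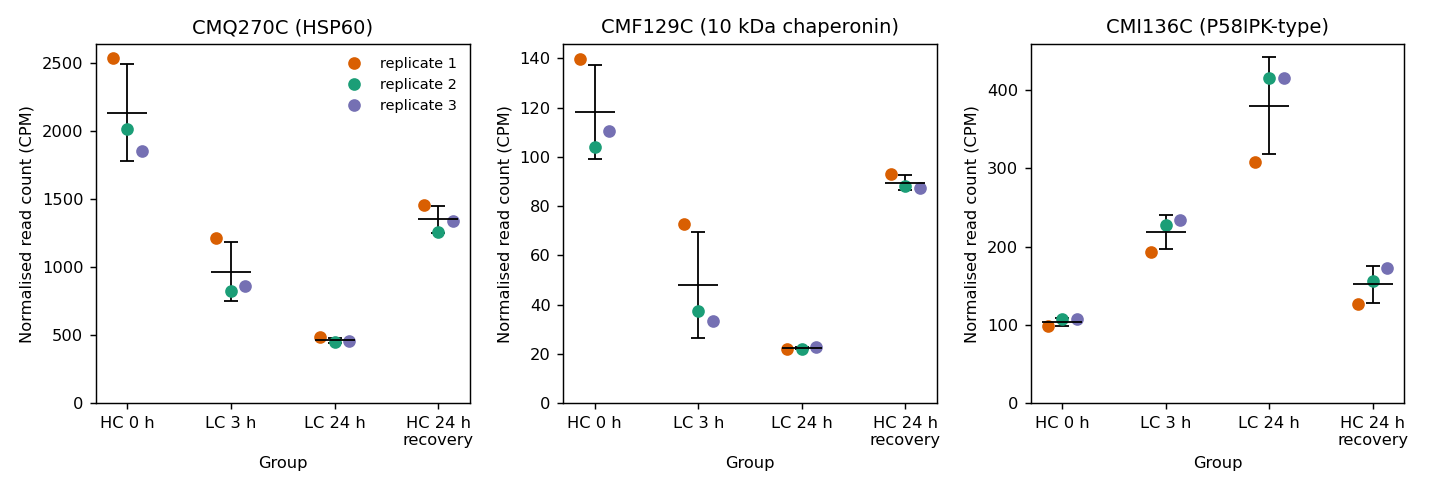
Normalised read counts (CPM, linear axes from 0) of CMQ270C, CMF129C and CMI136C in each library, by group; points are coloured by replicate number, and the black bar and whiskers are the group mean and SD (n = 3). CMQ270C and CMF129C were lowest at LC 24 h (means 462 and 22.3 CPM) and CMI136C was highest there (380 CPM), with recovery between HC 0 h and LC 3 h for all 3 genes.

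The change went on between the low-CO2 times. Between LC 3 h and LC 24 h the log2 change was -1.07 ± 0.17 (SE) for CMQ270C and 0.80 ± 0.14 for CMI136C, beside the -1.11 of CMF129C. On the return to high CO2, recovery against LC 24 h gave a log2 change of 1.55 ± 0.17 for CMQ270C, 2.01 ± 0.24 for CMF129C and -1.32 ± 0.14 for CMI136C. Groups did not overlap for any of the 3 genes in any of the 5 comparisons, which follows in part from how the genes were chosen. The share of all genes without overlap was not counted. With 3 libraries per group, overlap was also absent for genes that were not called. CMK278C at LC 24 h against HC 0 h was such a gene (edgeR adjusted p = 0.361). As a background, edgeR's quasi-likelihood test with Benjamini-Hochberg adjustment called 22.1% of the 4865 genes higher and 19.3% lower at LC 3 h against HC 0 h. The called shares were 32.7% higher and 30.3% lower at LC 24 h against HC 0 h, and 7.24% higher and 6.82% lower in recovery against HC 0 h. They were 24.7% higher and 24.9% lower in recovery against LC 24 h, and 23.7% higher and 29.5% lower at LC 24 h against LC 3 h. Of the calls, 53.4% were higher at LC 3 h against HC 0 h and 44.5% at LC 24 h against LC 3 h; under upper-quartile scaling these shares were 39.5% and 54.6%.

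Libraries with the same number deviated together for 2 of the 3 genes. CMQ270C was highest in replicate 1 in all 4 groups, and CMI136C was lowest in replicate 1 in all 4 groups. CMF129C was highest in replicate 1 in 3 of the groups and lowest in replicate 1 at LC 24 h, where the spread was small. Over all tested genes, replicate 1 was the highest in all 4 groups for 10.5% and the lowest in all 4 groups for 13.5%. The log2 change from HC 0 h to LC 24 h within one number was -2.39, -2.17 and -2.02 for CMQ270C in numbers 1 to 3. For CMF129C the same quantity was -2.67, -2.23 and -2.28, and for CMI136C it was 1.65, 1.96 and 1.95. Each gene thus kept its direction within every number.

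On the TPM scale, which corrects for gene length as well as library size, the 3 genes changed places in the transcriptome. The mean level of CMQ270C fell from 1553 TPM at HC 0 h to 358 TPM at LC 24 h, from rank 67 to rank 500 of 4956 genes with a TPM. CMF129C went from 500.0 to 100.2 TPM, from rank 333 to rank 2927. CMI136C rose from 67.3 TPM (rank 3713) to 261 TPM (rank 801), and so passed CMF129C in level. In recovery the mean levels were 924, 356 and 92.2 TPM for CMQ270C, CMF129C and CMI136C.

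The ratio of the chaperonin to its co-chaperonin type shifted between groups by less than either gene. It was computed as CMQ270C over CMF129C, in TPM within a library, and was 3.12, 3.34 and 2.88 at HC 0 h. At LC 3 h it was 2.88, 3.79 and 4.41, and at LC 24 h it was 3.79, 3.48 and 3.45. In recovery it was 2.69, 2.45 and 2.64, below every other library. The ratio at LC 24 h lay above that at HC 0 h in each library, and LC 3 h overlapped both groups. The genes share the rule that chose them, so this is a description and not a test.

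**Figure D2:**
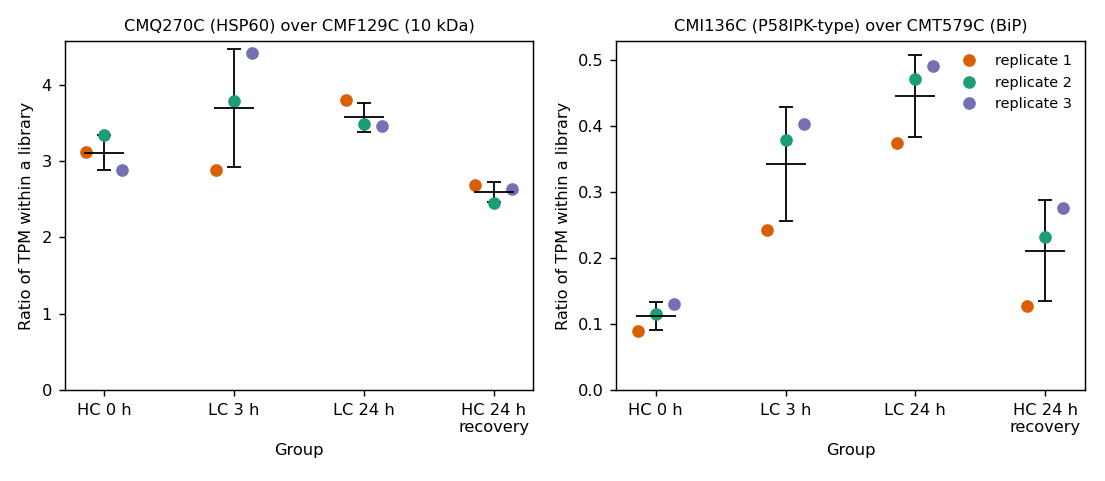
Ratio of TPM within each library (linear axes from 0) for CMQ270C over CMF129C and for CMI136C over CMT579C (BiP), by group; points are coloured by replicate number, with group mean and SD (n = 3). The first ratio stayed between 2.45 and 4.41, while the second rose from a mean of 0.112 at HC 0 h to 0.445 at LC 24 h. CMQ270C, CMF129C and CMI136C were chosen on their values, so both ratios are descriptions.

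Most other chaperonin genes fell with CMQ270C and CMF129C. The list holds 15 genes, and without the pair 13 remained, all of which passed the filter. At LC 3 h against HC 0 h, 11 of 13 were lower and 1 was higher by edgeR's quasi-likelihood test with Benjamini-Hochberg adjustment, beside 19.3% and 22.1% of all genes; the list's median log2 change was -0.69 and that of all genes 0.02. At LC 24 h 12 of 13 were lower and 1 was higher, with a median of -1.07 beside 0.02. Recovery against LC 24 h gave 12 higher and 1 lower, beside 24.7% and 24.9% of all genes, with a median of 0.81. In recovery against HC 0 h 3 were lower and none was higher, beside 6.82% and 7.24% of all genes. The count of lower genes was 11 with only the libraries numbered 2 and 3, 8 with the replicate number as a block and 5 with DESeq2. It was 2 without either of HC 0 h replicates 1 and 2 or without recovery replicate 3, and 1 without recovery replicate 2. CMF129C and CMQ270C had the lowest log2 changes of the 15 at LC 24 h, for which they were chosen. The authors' deposited table placed 12 of the 15 in cluster 6.

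The cytosolic TCP-1 type formed the largest subgroup, with 10 genes. All 10 were lower at LC 3 h and again at LC 24 h, and the median log2 changes were -0.80 and -1.09. All 10 were higher in recovery than at LC 24 h, although 2 of these calls rested on single libraries. That of CMB083C was lost without LC 24 h replicate 3 or recovery replicate 2 or 3, with adjusted p-values in the edgeR test of 0.055 to 0.083. The call for CMT558C was lost without LC 24 h replicate 2 or 3 or recovery replicate 1 (edgeR adjusted p-values 0.131 to 0.170). CMT207C, matched to TCP-1, was among the most lowered, at 532 CPM at HC 0 h and 162 CPM at LC 24 h (log2 change -1.72 ± 0.12, edgeR adjusted p = 8.42e-07). CML276C, matched to the epsilon subunit, fell by 1.69 ± 0.22 on the log2 scale (edgeR adjusted p = 6.54e-05). Log2 changes of CMB044C, CMS270C and CMT322C were -1.24, -1.17 and -0.74, and CMG005C went from 209 to 104.5 CPM. The smallest fall was that of CMB083C, at -0.56 ± 0.08. CME197C reached its lowest level early, at -1.08 ± 0.09 at LC 3 h, and was higher again at LC 24 h than at LC 3 h (log2 change 0.38 ± 0.09, edgeR adjusted p = 0.00511). The call for CMT318C at LC 3 h (edgeR adjusted p = 0.0174) was lost without replicate 1 of HC 0 h and without replicate 2 or 3 of LC 3 h, with adjusted p-values of 0.061 to 0.081.

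Plastid-type chaperonin genes differed from one another. CMB021C, matched to the chaperonin-60 alpha subunit of plastids that assists Rubisco assembly, had the highest level of the 3, with a mean of 2934 TPM at HC 0 h. Its log2 change was -0.69 ± 0.12 at LC 3 h and -1.71 ± 0.12 at LC 24 h (edgeR adjusted p = 1.28e-06). CMS188C, matched to chaperonin 20, the co-chaperonin of plastids, showed a log2 change of 0.02 ± 0.09 at LC 3 h and was lower at LC 24 h by -1.07 ± 0.09 (edgeR adjusted p = 2.99e-06). CMV086C, a chaperonin-60 type gene of the plastid genome, was the one chaperonin that rose, with 8.38 CPM at HC 0 h, 24.0 CPM at LC 3 h and 17.2 CPM at LC 24 h (log2 changes 1.51 ± 0.23 and 1.03 ± 0.23, edgeR adjusted p = 0.000432 and 0.00257). The library kit selects polyadenylated RNA, which most plastid transcripts lack, so its low level is not comparable with that of nuclear genes. The kit limits the reading of its rise as well, and whether capture differed between groups was not tested. The ratio of CMQ270C to CMB021C in TPM was 0.527 ± 0.070 (SD, n = 3) at HC 0 h and 0.374 ± 0.013 at LC 24 h. CMQ270C was chosen for its fall, so this ratio is a description.

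**Figure D3:**
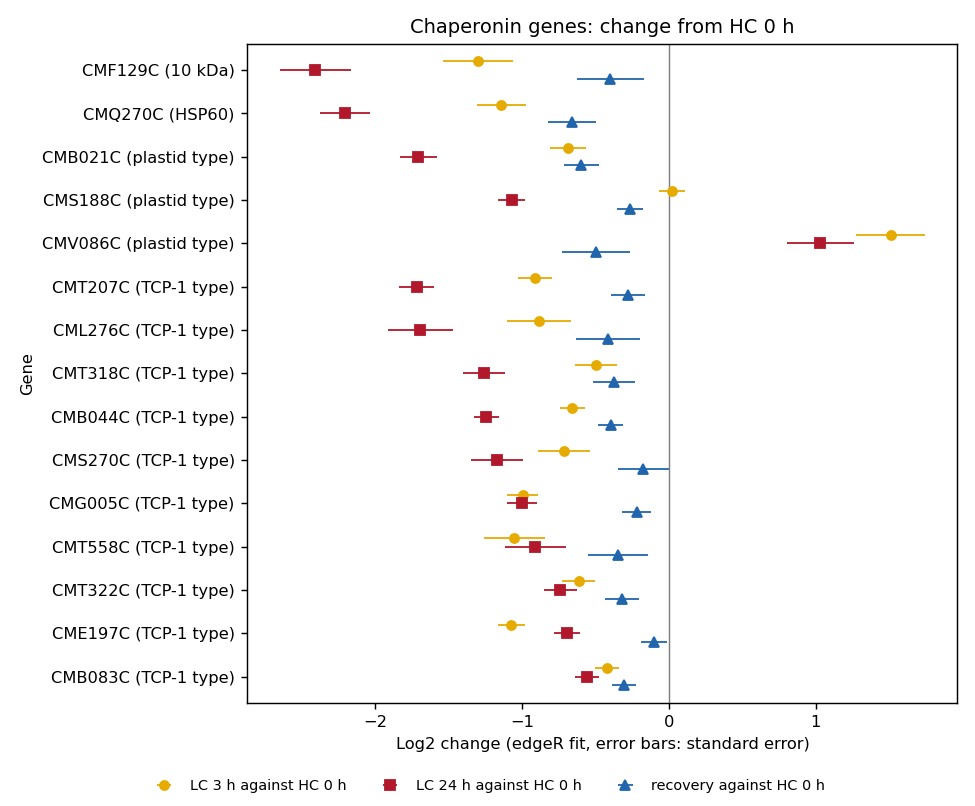
Log2 change from HC 0 h (edgeR fit, bars are standard errors) of the 15 chaperonin genes in the 3 later groups, with the genes set out as the HSP60 and 10 kDa pair, plastid type and TCP-1 type. At LC 24 h 14 of the 15 lie to the left of 0 and CMV086C of the plastid genome lies at 1.03.

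Summed over all 15 chaperonin genes, the level was 9331 to 10670 TPM at HC 0 h and 5287 to 6177 TPM at LC 3 h. It was 3687 to 4067 TPM at LC 24 h and 6358 to 7815 TPM in recovery. These ranges did not overlap, and CMQ270C and CMF129C together made up 1811 to 2477 TPM at HC 0 h and 438 to 487 TPM at LC 24 h.

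Most of the listed genes that work beside HSP60 in mitochondria in other organisms were lower at LC 24 h. The others did not pass the test. CML205C, matched to mitochondrial HSP70, which pulls proteins through the import channel, was 1667 CPM at HC 0 h and 751 CPM at LC 24 h (log2 change -1.15 ± 0.11, edgeR adjusted p = 7.22e-06). The ratio of CMQ270C to CML205C in TPM was 1.51 ± 0.26 (SD, n = 3) at HC 0 h and 1.33 ± 0.11 in recovery. The same ratio was 1.13 ± 0.29 at LC 3 h and 0.725 ± 0.019 at LC 24 h. It is a description, because CMQ270C was chosen for its fall. Of 16 genes on the mitochondrial import list, 10 were lower, none was higher and 6 did not pass edgeR's quasi-likelihood test at LC 24 h. All genes gave 30.3% lower and 32.7% higher, and the list's median log2 change was -0.38. Without a gene of another function that the word pattern took in, 15 remained. Of these, 10 were lower and 5 did not pass, with a median of -0.40. With the replicate number as a block 12 of the 16 were lower and 1 was higher. The earlier time, LC 3 h, had 4 lower and 1 higher, the lower share close to the 19.3% of all genes, and 7 lower and 2 higher with the block. CMF062C, matched to TOM40, the pore of the outer membrane, fell by 0.96 ± 0.06 at LC 24 h (edgeR adjusted p = 5.28e-07), and CMI216C, matched to TIM8, a small carrier of the space between the membranes, fell by 1.64 ± 0.24 (edgeR adjusted p = 0.000165).

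The actin and tubulin list, whose products include clients of the TCP-1 chaperonin, had 16 tested genes. At LC 24 h against HC 0 h 7 were lower and 3 higher, beside 30.3% and 32.7% of all genes. The list was drawn by word patterns, and its genes are not all actin or tubulin. Without a gene of another function 15 were tested, with the same counts. Of the higher genes, CMF060C, matched to AT1G31810, rose by 0.51 ± 0.05 (edgeR adjusted p = 7.67e-06). CMN147C, matched to AT5G52360, rose from 0.45 to 0.88 CPM (edgeR adjusted p = 0.0449), a call lost without any single library of these groups. CMT504C, matched to alpha tubulin, fell by 1.89 ± 0.47 on the log2 scale (edgeR adjusted p = 0.00469), and CMN263C, matched to beta tubulin, fell by 1.98 ± 0.61 (edgeR adjusted p = 0.015). Without LC 24 h replicate 1 these changes were -2.84 and -3.24. At LC 3 h 1 of the 16 was higher and 1 lower, beside 22.1% and 19.3% of all genes. The median log2 change was -0.02, while the 10 TCP-1 type genes had a median of -0.80. These counts were 2 higher and 1 lower with the replicate number as a block, and 2 and 2 without LC 3 h replicate 1. Whether the lists differ at LC 3 h was not tested.

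Few of the ER folding genes rose with CMI136C. The word patterns for that list took in 23 genes beside CMI136C, of which 7 are molybdenum cofactor genes that share the symbol CNX with calnexin; the other 16 are described here. At LC 24 h against HC 0 h 2 of the 16 were higher and 7 lower by edgeR's quasi-likelihood test, with a median log2 change of -0.25, and at LC 3 h 2 were higher and 8 lower, with a median of -0.33. All genes gave 32.7% higher and 30.3% lower in the first of these comparisons and 22.1% and 19.3% in the second. Recovery against LC 24 h gave 5 higher and 2 lower, beside 24.7% and 24.9% of all genes. Recovery against HC 0 h gave 1 higher and 1 lower, a share near the 7.24% and 6.82% of all genes. Over all 23 genes the last count also stood at 1 and 1, and it was 4 higher and 8 lower with only the libraries numbered 2 and 3. No gene among the 16 had a log2 change at LC 24 h as high as the 1.87 of CMI136C, for which it was chosen.

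BiP, the HSP70 that P58IPK serves in mammals, did not pass the test at LC 24 h. CMT579C, matched to BIP2, had a mean of 988 CPM at HC 0 h and 888 CPM at LC 24 h, and its groups overlapped (log2 change -0.15 ± 0.19, edgeR adjusted p = 0.494). At LC 3 h it was lower, with 688 ± 124 CPM (SD, n = 3; log2 change -0.52 ± 0.19, edgeR adjusted p = 0.0455). That call was lost without HC 0 h replicate 1 or 2 and without LC 3 h replicate 2 or 3, with adjusted p-values of 0.084 to 0.156. At LC 24 h against LC 3 h CMT579C did not pass (edgeR adjusted p = 0.121). With a replicate block it passed as higher (log2 change 0.395, edgeR adjusted p = 0.0202). It also passed without LC 3 h replicate 1 and with only the libraries numbered 2 and 3 (log2 changes 0.508 and 0.551). The ratio of CMI136C to CMT579C in TPM was 0.089, 0.116 and 0.131 at HC 0 h, 0.243, 0.379 and 0.403 at LC 3 h, and 0.374, 0.470 and 0.490 at LC 24 h. In recovery it was 0.127, 0.232 and 0.275, so LC 24 h and HC 0 h did not overlap, whereas recovery overlapped HC 0 h and LC 3 h. CMI136C was chosen for its rise, so this ratio is a description and not a test.

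Of 6 lectin chaperone, disulfide isomerase and oxidoreductin genes of the ER, 3 were lower at LC 24 h and 3 did not pass the test. CMI213C, matched to calnexin, which holds glycoproteins while they fold, was 3056 CPM at HC 0 h, 1702 CPM at LC 3 h and 938 CPM at LC 24 h (log2 change at LC 24 h -1.70 ± 0.19, edgeR adjusted p = 2.11e-05). CMC180C, matched to protein disulfide isomerase-like 1-4, fell by 1.12 ± 0.10 on the log2 scale at LC 24 h (edgeR adjusted p = 4.73e-06). The other disulfide isomerase-like genes moved less, with log2 changes of -0.23 ± 0.08 for CMN111C (edgeR adjusted p = 0.021, lost without HC 0 h replicate 1 or 2 or LC 24 h replicate 1 or 3), -0.10 ± 0.09 for CMK278C and -0.21 ± 0.29 for CMK015C. CMC022C, matched to ER oxidoreductin, which feeds oxidising power to the isomerases, had a log2 change of -0.27 ± 0.11 at LC 24 h that missed the threshold (edgeR adjusted p = 0.0512) and passed it with a replicate block and with DESeq2.

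Quality control genes divided. CMK163C, matched to a derlin, a membrane protein of the route that removes misfolded ER proteins, rose at LC 3 h and LC 24 h (log2 changes 0.81 ± 0.07 and 0.85 ± 0.07, edgeR adjusted p = 5.52e-06 and 2.07e-06) and remained higher in recovery (0.63 ± 0.07, edgeR adjusted p = 0.00119). CMB078C, related to sel-1, a partner of the ubiquitin ligase of that route in yeast and mammals, also rose at LC 24 h (0.59 ± 0.08, edgeR adjusted p = 9.27e-05). CMG180C, matched to the same Arabidopsis gene with a lower E-value, was lower at LC 3 h (-0.34 ± 0.09, edgeR adjusted p = 0.00971) and did not pass the test at LC 24 h (0.05 ± 0.09, edgeR adjusted p = 0.602). CMI159C, matched to another derlin, fell at LC 24 h by 0.64 ± 0.13 (edgeR adjusted p = 0.00115). CMQ459C, matched to the EBS1 glucosyltransferase that marks unfolded glycoproteins, and CML320C, matched to SDF2, fell by 0.77 ± 0.09 and 0.83 ± 0.15 (edgeR adjusted p = 2.24e-05 and 0.000708). CMF045C, matched to a mannosidase that trims glycans, stayed below 1 CPM in the mean of either group and did not pass the test (-0.50 ± 0.42, edgeR adjusted p = 0.319). The ER J-domain genes beside CMI136C were CMT613C (ERdj3B), with a log2 change of -0.29 ± 0.10 (edgeR adjusted p = 0.0223) that lost its call without HC 0 h replicate 1 or 2 or LC 24 h replicate 3, and CMQ208C (ERdj2A), at 0.03 ± 0.09.

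**Figure D4:**
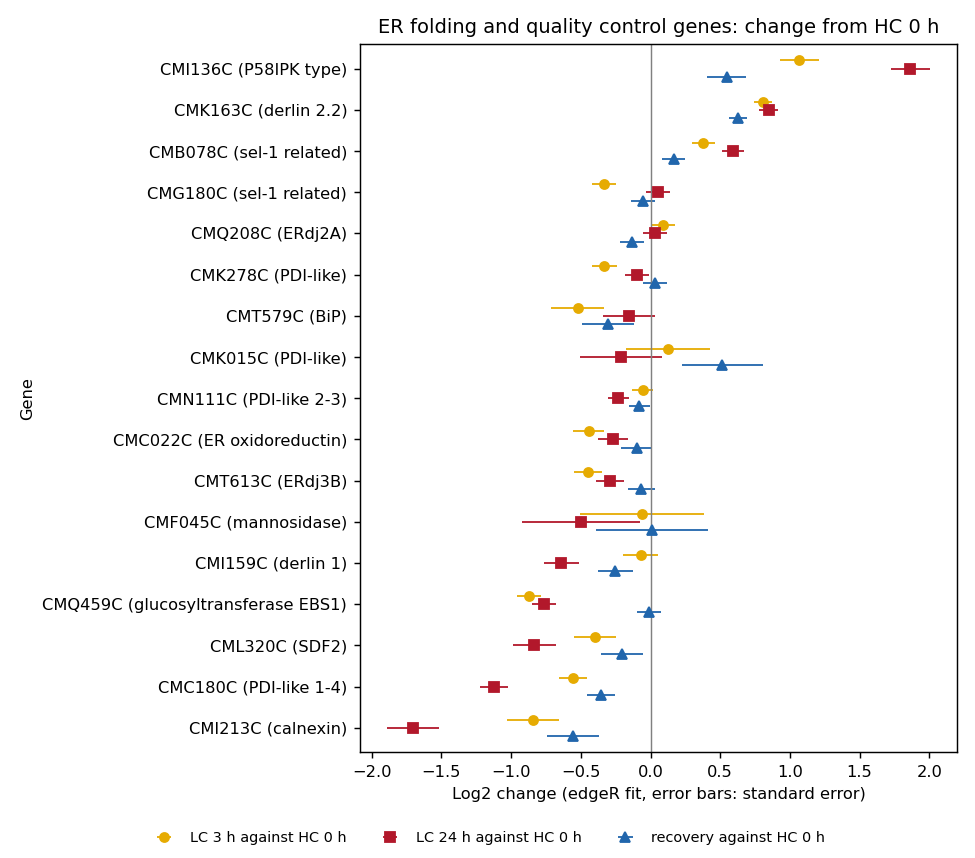
Log2 change from HC 0 h (edgeR fit, bars are standard errors) of CMI136C and 16 other ER folding and quality control genes in the 3 later groups, ordered by the change at LC 24 h. CMI136C lies at 1.87 at LC 24 h, BiP (CMT579C) at -0.15 and calnexin (CMI213C) at -1.70.

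Sensors and regulators were few in the table. The list of heat shock factors and eIF2 kinases held 4 tested genes. At LC 24 h against HC 0 h 2 were higher and 1 lower, beside 32.7% and 30.3% of all genes. The counts at LC 3 h were 1 higher and 1 lower, beside 22.1% and 19.3%, with log2 changes from -0.39 to 0.32. CMM326C, matched to IRE1A, the kinase and RNase that senses unfolded proteins in the ER membrane, had a log2 change of -0.03 ± 0.11 at LC 3 h and rose at LC 24 h from 233 to 422 CPM (0.85 ± 0.11, edgeR adjusted p = 4.77e-05). Of the genes matched to heat shock factors, CMO187C rose at LC 24 h by 0.47 ± 0.07 (edgeR adjusted p = 0.000212). CMT597C fell by 0.80 ± 0.24 (edgeR adjusted p = 0.0131), a call lost without replicate 1 of HC 0 h or replicate 2 of LC 24 h, with adjusted p-values of 0.0608 and 0.0503.

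J-domain proteins are the co-chaperones that start the ATP cycle of HSP70. CMI136C, chosen for its rise, had the highest log2 change of the 29 on the list at both LC 3 h and LC 24 h. The list rests on the wording of the descriptions and does not hold the ER genes CMT613C and CMQ208C, given above. Of the other 28 genes, 15 had risen and 6 had fallen at LC 24 h by edgeR's quasi-likelihood test, beside 32.7% and 30.3% of all genes, and the median log2 change was 0.22. The next highest was CMA021C at 0.83 ± 0.14 (716 to 1273 CPM, edgeR adjusted p = 0.000396), and the lowest was CMQ374C at -1.40 ± 0.23 (edgeR adjusted p = 0.000333). The counts at LC 3 h were 6 higher and 4 lower, beside 22.1% and 19.3% of all genes, the higher share close to that of all genes. The count of higher genes was 10 with the replicate number as a block, 9 without LC 3 h replicate 1, and 4 without replicate 1 of HC 0 h or replicate 2 of LC 3 h. Recovery against LC 24 h gave 10 lower and 4 higher, beside 24.9% and 24.7% of all genes, and the block gave 10 and 7.

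**Figure D5:**
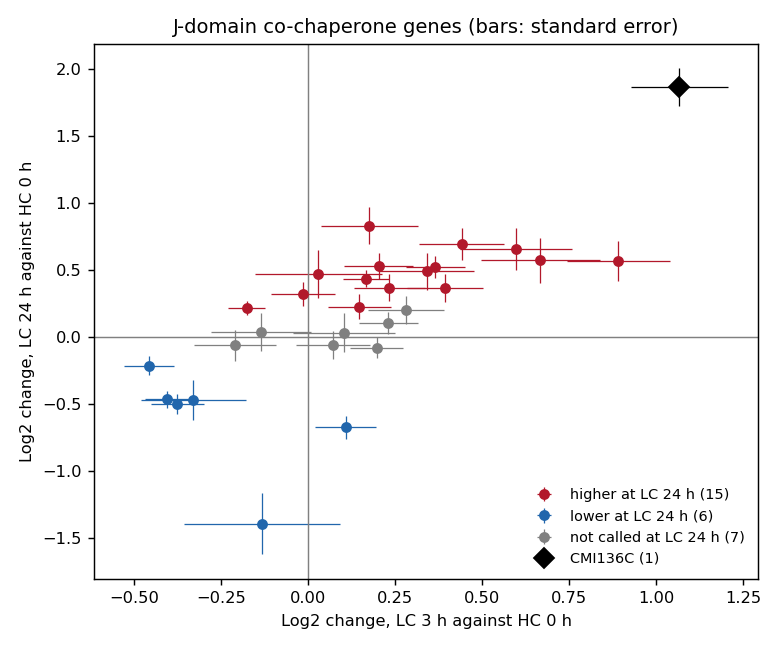
Log2 change at LC 3 h (horizontal) and LC 24 h (vertical) against HC 0 h for the 29 J-domain genes, with standard errors, coloured by the call at LC 24 h. The 28 tested genes lie between -1.40 and 0.83 on the vertical axis, and CMI136C, chosen for its rise and not tested, lies at 1.07 and 1.87.

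The other ATP-driven chaperone families held few genes. Of 5 HSP70 genes, the partners of J-domain proteins, BiP included, 3 were lower and none higher at LC 24 h, beside 30.3% and 32.7% of all genes, and CMP145C, matched to HSP70B, fell by 1.75 ± 0.23 on the log2 scale (edgeR adjusted p = 7.15e-05). Both HSP90 genes were lower, with log2 changes of -1.91 ± 0.21 for CMQ224C and -0.51 ± 0.11 for CMA061C. Of 10 HSP100 and Clp genes 4 were higher and 3 lower, shares close to those of all genes. CMS128C, matched to the disaggregase CLPB3, rose by 1.45 ± 0.20 (edgeR adjusted p = 9.97e-05), and CMT045C, matched to CLPX, the unfoldase of a mitochondrial protease, rose by 1.64 ± 0.16 (edgeR adjusted p = 6.95e-06). CMN237C, matched to the protease subunit CLPP5 of plastids, fell by 1.58 ± 0.09 (edgeR adjusted p = 3.69e-07).

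The remaining lists held few genes or genes that moved both ways at LC 24 h, when 32.7% of all genes were higher and 30.3% lower. Of 5 prefoldins, which hand unfolded actin and tubulin to the TCP-1 chaperonin, 2 were higher and 1 lower by edgeR's quasi-likelihood test, and CMK106C, matched to prefoldin 5, rose by 0.55 ± 0.12 on the log2 scale (edgeR adjusted p = 0.00242). Of 21 peptidyl-prolyl isomerases, 1 of which is a gene of another function that shares a symbol, 7 were higher, a share close to that of all genes, and 9 were lower. Leaving out HC 0 h replicate 1 or LC 24 h replicate 2 gave 4 higher. The small heat shock protein list, which rests on the wording of the descriptions, held 2 genes, and 1 was lower. That gene was CMQ190C, matched to AT3G03773 (log2 change -1.19 ± 0.18, edgeR adjusted p = 0.00019). Whether its product is a small heat shock protein was not tested. No gene matched the patterns for nucleotide exchange factors. Among 21 tested genes of ER translocation and N-glycosylation, 6 were higher and 11 lower, and CMK192C, matched to SEC61, the channel through which proteins enter the ER, fell by 1.21 ± 0.18 (edgeR adjusted p = 0.000158).

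Over the 10 folding lists together, without the 3 genes, the comparison of LC 24 h with HC 0 h called 33 of 108 genes higher and 45 lower, beside 32.7% and 30.3% of all genes. That of LC 3 h with HC 0 h called 22 higher and 33 lower, beside 22.1% and 19.3%. Without 8 genes of another function that the word patterns took in, these counts were 31 and 44 of 100 at LC 24 h and 22 and 33 at LC 3 h. Recovery against HC 0 h gave 7 higher and 9 lower, beside 7.24% and 6.82% of all genes; without recovery replicate 1 the counts were 13 and 17, and without any other single library of these groups they were 1 to 3 higher and 4 to 7 lower. Recovery against LC 24 h gave 36 higher and 23 lower, beside 24.7% and 24.9%, and LC 24 h against LC 3 h gave 18 higher and 36 lower, beside 23.7% and 29.5%. All comparisons with HC 0 h share the same 3 control libraries.

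Many genes followed the same course over the 12 libraries, as the likeness of log2 CPM shows. With CMQ270C, 164 genes had a Pearson correlation of at least 0.95, and the closest was CMM294C, matched to an adrenodoxin-like ferredoxin reductase, at r = 0.992 (Spearman rho = 0.958). The next 4 were CMK285C (translation initiation factor 3B), CMO030C (no assigned function), CMI109C (no description, with 1 or 2 reads in each LC 24 h library) and CMH046C (ribosomal protein S14). CMF129C was the 30th closest gene to CMQ270C, at r = 0.977. Likeness to CMF129C reached 0.95 in 91 genes and was led by CMD031C, matched to an arginine methyltransferase, at r = 0.993. Behind it came CMQ074C (an ADP-ribosylation factor), the TCP-1 gene CMT207C at 0.985, CML317C (ribosomal protein L7a) and CMH197C (mitochondrial ATP synthase beta chain). CMI136C had 71 such genes, led by CMK043C, matched to a myb family factor, at r = 0.986, and followed by CMN100C (a haloacid dehalogenase-like hydrolase), CMK101C and CMS249C (no known function) and CML157C (HCF107). CMI136C and CMQ270C had r = -0.981. The libraries fall into 4 groups that share their cultures' conditions, and these correlations mainly measure the order and spacing of the groups.

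The neighbours of the 3 genes in the RefSeq gene order of assembly ASM9120v1 did not overlap them. At LC 24 h against HC 0 h the neighbours of CMI136C had log2 changes of -0.01 (CMI135C) and -0.34 (CMI137C), neither past the edgeR threshold. The neighbours of CMF129C were CMF128C, at 0.27, and CMF130C, at -1.84 (edgeR adjusted p = 0.0103) and at -2.98 without LC 24 h replicate 1. CMQ271C beside CMQ270C stood at -0.23 (edgeR adjusted p = 0.0044).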

How the data were processed

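RNA-seq libraries were read as paired ends of 100 bases from a kit that does not keep strand, per the labels' protocols. The tools named in the submitters' processing notes were CASAVA 1.8, Bowtie2, RSEM and edgeR (build, annotation and role of each tool: not given in the sources used here). Coordinates and sequences are therefore left out. The deposited table gives an estimated count and a TPM for each gene and library, per the file headers. Its log2 changes follow from the authors' mean TPM plus 1, and its q-values, deposited with no stated test, were not used. Of the count cells 94.0% held whole numbers, and all were rounded. Columns were matched to samples by name, with 0 left unmatched.

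Counts were tested with edgeR 4.0.16 in R 4.3.3, with all 12 libraries in 1 fit of 4 groups, TMM scaling, the default filter on low counts (105 genes removed, 4865 kept) and the robust quasi-likelihood F test. Benjamini-Hochberg adjustment ran over all tested genes of a comparison, and the call threshold was 0.05. CPM used the TMM library sizes, log2 CPM a prior count of 2, and standard errors the log2 change and its F statistic. The script was tested on simulated data. P-values rest on the spread between the 3 cultures within a group, pooled over the 4 groups and shared in part across genes. The main fit did not use the replicate numbers.

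The genes, the 14 lists (word patterns on the descriptions, 10 of them for folding) and the naming rule were chosen with earlier results of these data known. The rule names every chaperonin and ER folding gene, at most 2 risen and 2 fallen genes per remaining list at LC 24 h, the 5 genes most correlated with each of the 3 genes, and neighbours. The patterns also caught 7 molybdenum cofactor genes and 3 others of another function. Replicate numbers come from the sample titles. Deviations from the group means of same-numbered libraries correlated at 0.456, 0.243 and 0.389 between HC 0 h and LC 3 h. Between LC 24 h and recovery they correlated at 0.535, 0.212 and 0.482. Between the other groups compared, at least 1 of the 3 was 0.0744 or lower. Some libraries with unlike numbers correlated as well, such as HC 0 h replicate 3 with LC 3 h replicate 2 at 0.435. LC 24 h replicate 2 with recovery replicate 3 gave 0.456. Whether the numbers pair the libraries is therefore not settled. RefSeq's genes of assembly ASM9120v1 held 4738 of the 4970 identifiers and served only to find neighbours. Alternatives were other scalings, filters, DESeq2 1.42.0, a replicate block, deposited TPM and leaving out libraries.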

Additional observations from a re-analysis of the deposited data

How the results depend on the processing

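All 210 alternative values of the log2 changes of CMQ270C, CMF129C and CMI136C kept their direction, and 203 of them moved by less than the spread between replicates. With deposited TPM, CMQ270C changed by -0.83 (LC 24 h against LC 3 h) and by 1.36 in recovery against LC 24 h, CMF129C by 1.82 (recovery against LC 24 h), and CMI136C by 0.91 (LC 3 h against HC 0 h) and 1.03 (LC 24 h against LC 3 h). With only the libraries numbered 2 and 3, a choice made after seeing the data, CMF129C changed by -0.67 (LC 24 h against LC 3 h) and by 1.97 in recovery against LC 24 h, and 1427 genes in place of 939 were lower at LC 3 h. Of 5635 alternative values of the other named genes, 0 changed direction with a call, 224 lost the call and 186 gained it.

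The count least stable was recovery against HC 0 h, with 352 genes higher and 332 lower. It was 668 and 583 with a replicate block, 1155 and 1185 with only the libraries numbered 2 and 3, and DESeq2 gave 561 lower. Leaving out 1 library at a time gave 107 to 471 higher and 82 to 442 lower, fewest without recovery replicate 2. For folding genes, 7 higher and 9 lower became 12 and 23 with the replicate block, 11 and 16 with DESeq2, 18 and 32 with the libraries numbered 2 and 3, and 1 to 13 and 4 to 17 leaving out 1 library. At LC 3 h against HC 0 h and in recovery against LC 24 h, the block moved no count of all genes called or of folding genes called by over 1.5 times. Low counts limit CMF129C most, with 280 to 710 reads at LC 3 h and 312 to 539 at LC 24 h.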
